A study of Mus musculus with 15 samples.

Results

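The immediate early transcription factors examined here were 10 genes, Fos, Fosb, Jun, Junb, Atf3, Egr1, Egr2, Egr3, Nr4a1 and Ier2, measured in the whole aorta of 15 mice. Members were taken by name, as every probe set annotated to exactly 1 gene that was one of the 10, which gave 13 of the 45037 probe sets on the array and 10 of 18193 genes. A probe set is the group of short probes that reports 1 transcript. Jun, Egr2 and Egr3 had 2 probe sets each and the other 7 genes had 1. For counts per gene, the probe set with the higher mean over the 15 arrays stood for the gene.

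All mice were male C57BL/6 animals aged 9 weeks, kept on chow, and all lacked apolipoprotein E (ApoE-/-, called Apoe null here), whose loss raises plasma cholesterol. Part of the mice were null for RAGE too (ApoE-/- RAGE-/-, called Apoe/RAGE null), a cell surface receptor for proteins modified by sugars and for S100 proteins. Diabetes had been induced at 6 weeks of age by 5 daily intraperitoneal injections of streptozotocin, which kills pancreatic beta cells, at 65 mg/kg, and controls had received citrate buffer. The groups were diabetic Apoe null (replicates 1 to 4), non-diabetic Apoe null (replicates 5 to 8), diabetic Apoe/RAGE null (replicates 9 to 12) and non-diabetic Apoe/RAGE null (replicates 13 to 15). Each array held the aorta of 1 mouse, from the root to the bifurcation, and a non-diabetic Apoe/RAGE null sample had failed before hybridization. Jackson labs had supplied the Apoe null mice, while the Apoe/RAGE null mice had been bred in a different laboratory, so genotype and colony cannot be told apart.

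Immediate early genes are transcribed within minutes of a stimulus, without the need for newly made protein, and their mRNAs are short-lived. Growth factors, stretch, injury and stress switch them on through MAP kinases acting on SRF with its ELK partners at serum response elements, and through CREB at cyclic AMP response elements. Their protein products are transcription factors that carry the signal to later genes. In arteries they are best known from smooth muscle and endothelial cells after injury or altered flow.

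Promoter sequences were read from RefSeq (mouse assembly GRCm38.p6), whose promoter windows covered 7 of the 10 members. They are shown for 5 of these, to display the kinds of element named above. Fos, Fosb, Jun and Atf3 belong to the pairs of members that followed each other within groups, as described further on. Nr4a1 had the highest SD within groups after Atf3. Each sequence is the 250 bases before the annotated start, 5′ to 3′ on the strand of the gene. Capitals mark exact matches to 4 short motifs. The cyclic AMP response element half-site is TGACG, searched on both strands. The EGR site, GCGNGGGCG, was likewise searched on both strands. So was the site of ETS factors, to which the ELK proteins belong, spelled CCGGAA. The TATA box, TATAAA, was searched on the strand of the gene, and none of the marked matches overlap. A match is a description of the letters and was not tested for binding.
Fos, chr12:85473640-85473889, plus strand: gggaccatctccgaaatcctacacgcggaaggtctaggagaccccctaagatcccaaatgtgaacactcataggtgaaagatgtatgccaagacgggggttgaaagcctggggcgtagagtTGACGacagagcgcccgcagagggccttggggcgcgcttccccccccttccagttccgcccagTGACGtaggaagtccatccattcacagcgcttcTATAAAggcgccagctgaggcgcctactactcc
Fosb, chr7:19310046-19310295, minus strand: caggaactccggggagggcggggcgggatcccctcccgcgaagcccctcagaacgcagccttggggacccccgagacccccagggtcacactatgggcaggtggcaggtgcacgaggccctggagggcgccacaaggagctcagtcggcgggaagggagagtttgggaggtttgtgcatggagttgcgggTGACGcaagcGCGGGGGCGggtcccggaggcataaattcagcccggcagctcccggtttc
Jun, chr4:95052223-95052472, minus strand: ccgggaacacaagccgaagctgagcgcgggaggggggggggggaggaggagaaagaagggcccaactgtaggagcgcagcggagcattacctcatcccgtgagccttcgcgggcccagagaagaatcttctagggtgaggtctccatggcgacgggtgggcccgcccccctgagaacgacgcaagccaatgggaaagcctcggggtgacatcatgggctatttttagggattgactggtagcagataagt
Atf3, chr1:191183334-191183583, minus strand: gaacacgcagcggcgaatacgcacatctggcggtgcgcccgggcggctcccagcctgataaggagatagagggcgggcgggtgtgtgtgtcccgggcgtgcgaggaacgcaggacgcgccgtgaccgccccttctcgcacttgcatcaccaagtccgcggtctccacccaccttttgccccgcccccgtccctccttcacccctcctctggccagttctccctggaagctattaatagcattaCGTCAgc
Nr4a1, chr15:101266596-101266845, plus strand: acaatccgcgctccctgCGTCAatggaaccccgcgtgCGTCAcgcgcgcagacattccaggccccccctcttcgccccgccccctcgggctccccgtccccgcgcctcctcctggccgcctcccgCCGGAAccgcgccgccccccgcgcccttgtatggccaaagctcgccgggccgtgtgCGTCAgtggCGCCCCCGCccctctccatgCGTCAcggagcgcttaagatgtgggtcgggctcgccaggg

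Of the 7 members with a window, 6 held TGACG on one strand or the other before a start (Egr2 in 3 of its 5 windows), and 17.8% of the 32851 RefSeq windows of this length did. Jun held none of the 4 motifs as spelled here, which says only that these letters are not in this window. Fos had 2 copies and a TATA box, and TATAAA occurred in 7.59% of windows. Nr4a1 had 4 copies of the half-site, together with an EGR site, held by 4.70% of windows, and an ETS site, held by 12.0%. Fosb carried 1 half-site beside an EGR site, and the only marked half-site of Atf3 lay within 7 bases of the start. Of the 7, only Egr2 held a CArG box, the core of the serum response element, within the 250 bases searched, as 1.47% of windows did. Egr1, Egr3 and Ier2 had no window, and bases further upstream were not searched for any member. Serum response elements elsewhere are therefore not excluded for the other members. RefSeq gives Egr2 several starts, and 2 CArG boxes lay before them, each in capitals within 30 bases of the plus strand.
Egr2, chr10:67537484-67537513: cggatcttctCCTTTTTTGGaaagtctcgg
Egr2, chr10:67537787-67537816: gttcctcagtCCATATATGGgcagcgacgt

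Values are log2 levels as deposited, so a difference of 1 is a doubling. The array medians lay between 4.35 and 4.42, and the smooth muscle marker genes averaged 10.46 to 11.25 on every array. The 3′ to 5′ difference of the Gapdh control probe sets is a sign of RNA length. It averaged 0.85 in diabetic and 0.62 in non-diabetic Apoe null aortas, and 0.91 and 0.62 in Apoe/RAGE null aortas. Its highest value, 1.40, was in replicate 4. For the beta-actin control probe sets the Apoe null groups had the other order, 0.85 with diabetes and 1.09 without. The Apoe/RAGE null means were 1.24 and 1.12, and the highest value, 1.57, was in non-diabetic replicate 5. The part of either difference in the comparisons was not tested. Mean correlations with the other arrays ran from 0.975 (replicate 10) to 0.990. Replicate 10 also had the highest mean level of B cell markers, 8.25 against 3.69 to 5.98 on the other 14 arrays, and of T cell markers, 6.67 against 3.91 to 4.68. Macrophage markers (8.16 against 6.89 to 7.86) and neutrophil markers (4.99 against 3.49 to 4.82) were highest there too. The genotype labels could not be checked through Ager, the RAGE gene. Decr2, a gene on the same chromosome as Ager, read 5.32 to 6.01 on the 8 Apoe null arrays and 6.84 to 6.98 in non-diabetic Apoe/RAGE null aortas. Among diabetic Apoe/RAGE null aortas it read 7.40 and 7.56 in replicates 11 and 12, but 5.19 and 5.10 in replicates 9 and 10. As 1 gene, chosen after its values were seen, Decr2 does not settle the genotype of a mouse. For comparisons that use the diabetic Apoe/RAGE null group, the values as labelled are therefore followed by the median, the counts and the main member values without replicates 9 and 10. RNA came from whole tissue, so fewer cells of a type and less RNA per cell cannot be told apart.

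**Figure D1:**
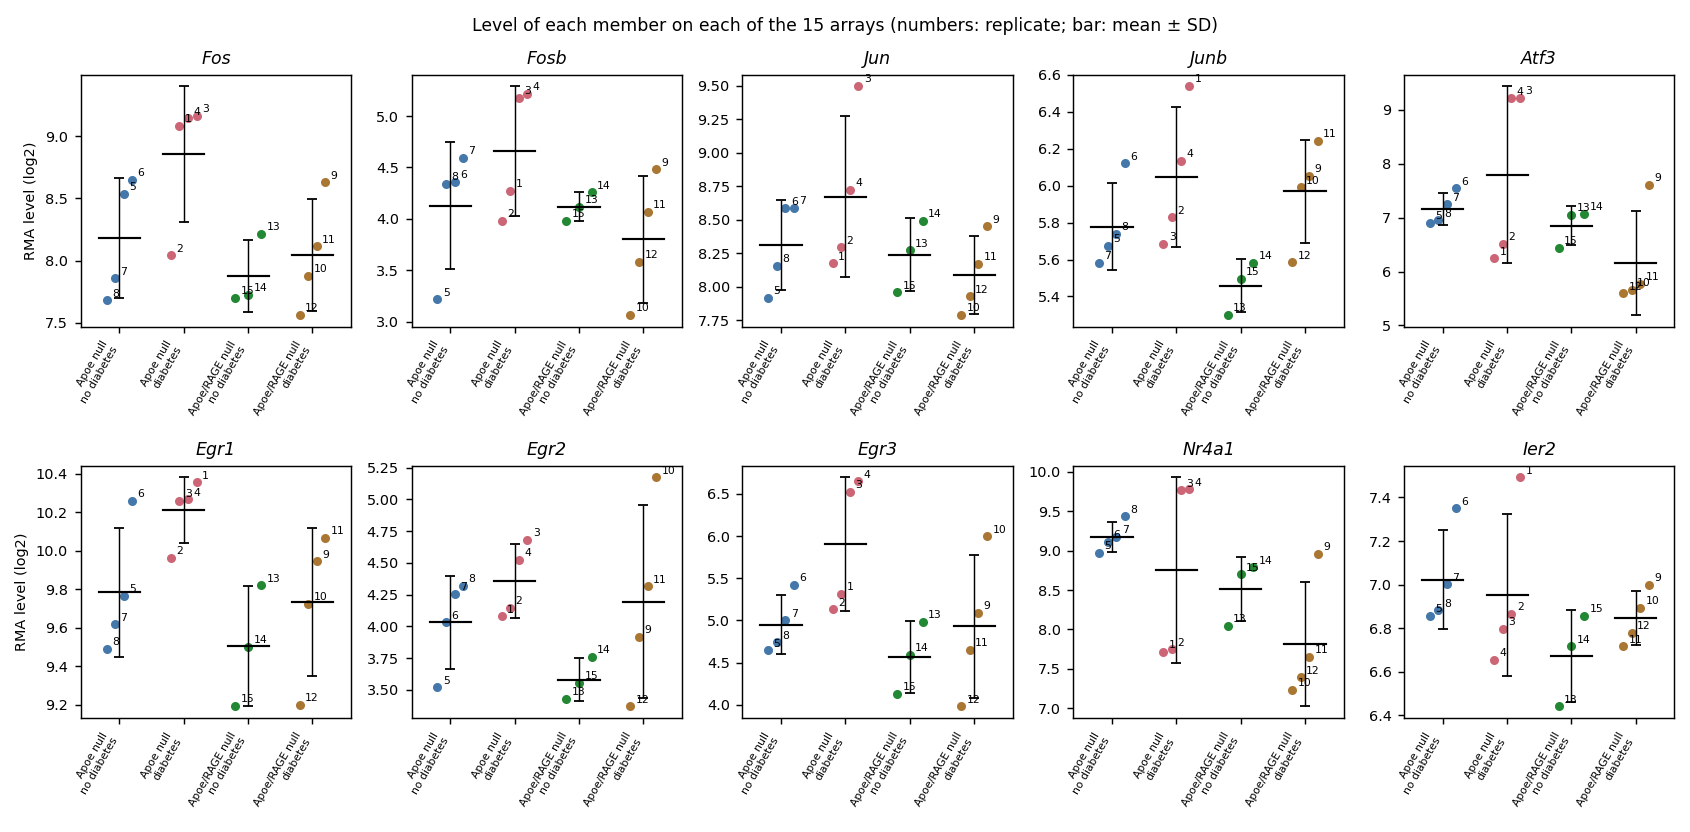
Log2 level (vertical axis, a separate scale for each gene) of the 10 members on each of the 15 arrays, with replicate numbers beside the points and the mean ± SD of each group as bars (n = 4, 4, 3 and 4 from left to right). Replicates 3 and 4 lie at the top for Fos, Fosb, Jun, Atf3, Egr3 and Nr4a1, and the groups overlap for most genes.

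The first group of members comprises the subunits of AP-1, a dimer of FOS and JUN family proteins. Fos encodes the prototype FOS subunit. It read 9.08, 8.04, 9.16 and 9.14 in diabetic Apoe null replicates 1 to 4 and 8.54, 8.65, 7.86 and 7.68 in the 4 non-diabetic Apoe null aortas. In Apoe/RAGE null aortas it read 8.63, 7.87, 8.11 and 7.56 with diabetes and 8.21, 7.72 and 7.70 without. Replicates 1, 3 and 4 were thus above every other array, while replicate 2 lay among the rest.

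Fosb encodes a second FOS subunit, whose splice forms differ in activating power. Its levels were 4.27, 3.98, 5.18 and 5.22 in diabetic and 3.22, 4.36, 4.60 and 4.34 in non-diabetic Apoe null aortas. In Apoe/RAGE null aortas they were 4.48, 3.06, 4.07 and 3.58 with diabetes and 4.12, 4.26 and 3.98 without. Replicates 3 and 4 were the highest, all groups overlapped, and the level lay near the array medians.

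Jun encodes the AP-1 subunit that can also pair with itself. By its brighter probe set it read 8.17, 8.29, 9.50 and 8.72 in diabetic Apoe null aortas and 7.92, 8.58, 8.59 and 8.16 in non-diabetic ones. Diabetic Apoe/RAGE null aortas had 8.45, 7.79, 8.17 and 7.93, and non-diabetic ones 8.27, 8.49 and 7.96. Replicate 3 was again the highest, and it was so by the second probe set too, at 8.87 within a range of 7.59 to 8.87.

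Junb, whose product is a weaker activator than JUN and can restrain it, had another order. It read 6.54, 5.83, 5.68 and 6.13 in diabetic and 5.67, 6.12, 5.58 and 5.74 in non-diabetic Apoe null aortas. With diabetes, Apoe/RAGE null aortas read 6.05, 5.99, 6.24 and 5.59, and without it 5.30, 5.58 and 5.49. The 3 non-diabetic Apoe/RAGE null arrays lay below every array of the other groups, but only just. Their highest value was 5.5811, and the nearest others were 5.5818 in non-diabetic Apoe null and 5.5858 in diabetic Apoe/RAGE null aorta.

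Atf3 encodes a stress-induced partner of the JUN proteins that often represses its targets. It varied most of the 10 genes, over 3.63 on the log2 scale or 12.35-fold. Diabetic Apoe null aortas read 6.25, 6.51, 9.23 and 9.21, and non-diabetic ones 6.91, 7.55, 7.25 and 6.95. In Apoe/RAGE null aortas the levels were 7.61, 5.66, 5.78 and 5.60 with diabetes and 7.05, 7.07 and 6.44 without. Diabetic arrays were both the highest (replicates 3 and 4) and the lowest (replicates 10 to 12), and in each genotype the diabetic group spread around the non-diabetic one.

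The EGR genes encode zinc finger factors that bind GC-rich sites. Egr1 read 10.35, 9.96, 10.26 and 10.27 in diabetic Apoe null aortas and 9.77, 10.26, 9.62 and 9.49 in non-diabetic ones. Levels in Apoe/RAGE null aortas were 9.95, 9.73, 10.07 and 9.20 with diabetes and 9.82, 9.50 and 9.19 without. The diabetic Apoe null arrays were close together (SD 0.17), and 1 array of the non-diabetic Apoe null group and 1 of the diabetic Apoe/RAGE null group reached into their range. The 3 non-diabetic Apoe/RAGE null arrays all lay below it.

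Egr2, known for its role in Schwann cells and in lymphocytes, was low. The probe set with the higher mean read 4.08, 4.14, 4.68 and 4.52 in diabetic and 3.52, 4.03, 4.26 and 4.32 in non-diabetic Apoe null aortas. Apoe/RAGE null aortas read 3.92, 5.17, 4.32 and 3.37 with diabetes and 3.43, 3.76 and 3.55 without. Replicate 10, the array with the highest B cell, T cell, macrophage and neutrophil markers, was the highest of the 15, and the part of those cells in its Egr2 level was not tested. The second probe set read 3.02, 2.98 and 2.77 in non-diabetic Apoe/RAGE null aortas and 3.28 to 4.65 on the other 12 arrays, so that these 3 lay below all others.

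Egr3, a target of EGR1 that acts at the same sites, read 5.31, 5.13, 6.52 and 6.65 in diabetic Apoe null aortas and 4.64, 5.42, 5.00 and 4.74 in non-diabetic ones. Apoe/RAGE null levels were 5.09, 6.00, 4.65 and 3.98 with diabetes and 4.99, 4.59 and 4.13 without. Replicates 3 and 4 were the highest and replicate 10 came next. The other Egr3 probe set hardly varied (4.84 to 5.28) and did not follow the first.

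Nr4a1 encodes an orphan nuclear receptor that is active without a known ligand and restrains inflammation in vessels and macrophages. It read 7.72, 7.75, 9.76 and 9.78 in diabetic Apoe null aortas against 8.97, 9.11, 9.17 and 9.43 in non-diabetic ones. With diabetes, Apoe/RAGE null aortas read 8.96, 7.24, 7.65 and 7.40, and without it 8.05, 8.79 and 8.70. As with Atf3, replicates 3 and 4 lay above the non-diabetic group and replicates 1 and 2 below it.

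Ier2, which encodes a small nuclear regulator, varied least. It read 7.49, 6.86, 6.80 and 6.65 in diabetic and 6.86, 7.35, 7.0005 and 6.88 in non-diabetic Apoe null aortas. Apoe/RAGE null aortas had 6.998, 6.89, 6.72 and 6.78 with diabetes and 6.44, 6.72 and 6.86 without. Replicates 1 and 6 were the highest, and all 4 groups overlapped.

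Mice of 1 group differed more in these genes than in most others. The SD within groups was 1.02 for Atf3 and 0.76 for Nr4a1, which placed them at the 99.5th and 99.0th percentile of the 45037 probe sets. It was 0.66 for the varying Egr3 probe set (98.5th percentile; the flat one lay at the 13.9th), 0.56 for Fosb (97.8th), 0.47 for Egr2 (96.5th), 0.46 for Fos (96.4th) and 0.40 for Jun (94.8th). Egr1 (0.31), Junb (0.28) and Ier2 (0.25) lay at the 89.4th, 86.0th and 81.7th percentiles, and at the 84.5th, 79.4th and 73.1st among the 22519 brighter probe sets. The range from the lowest to the highest array was 6.36-fold for Egr3, 5.81-fold for Nr4a1 and 4.45-fold for Fosb, and at its least 2.07-fold for Ier2. Replicates 3 and 4 were each among the highest pair of arrays for 7 of the 10 genes, and replicate 1 was the highest for Egr1, Junb and Ier2. Replicate 12 was the lowest for Fos, Atf3, Egr2 and Egr3, and replicate 10 for Fosb, Jun and Nr4a1.

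**Figure D2:**
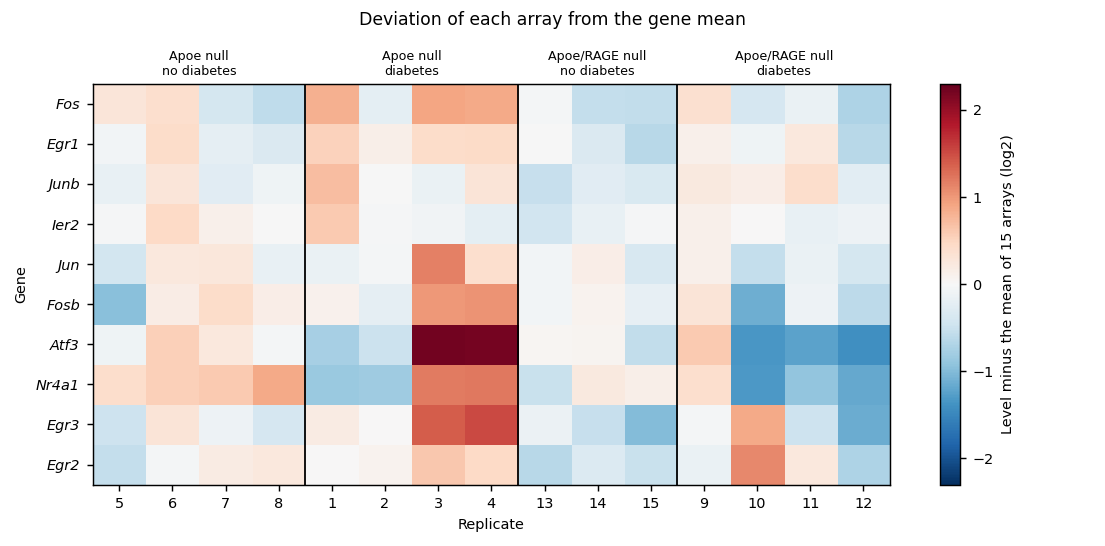
Deviation of each array (columns, by replicate and group) from the mean of the 15 arrays (log2, colour scale) for the 10 members (rows). Replicates 3 and 4 are high for Jun, Fosb, Atf3, Nr4a1 and Egr3, replicates 10 to 12 are low for Atf3 and Nr4a1, and replicate 10 is high for Egr2 and Egr3.

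Some members followed each other from mouse to mouse within groups. After the group means were removed, 35 of the 45 pairs of members correlated positively over the 15 arrays, with a median r of 0.33. Of these, 3 pairs passed permutation tests within groups (100000 resamples, 2-sided, Benjamini-Hochberg adjusted over the 45 pairs) for both Pearson's r and Spearman's rho. Jun and Atf3, which can dimerize, had r = 0.81 (adjusted permutation p = 0.0036) and rho = 0.82 (adjusted permutation p = 0.00787), and r = 0.71 without replicates 1 and 3. For Fosb and Jun, r was 0.81 (adjusted permutation p = 0.0106) and rho 0.87 (adjusted permutation p = 0.00787), and r was 0.79 without replicates 5 and 10. For Fos and Egr1, r was 0.79 (adjusted permutation p = 0.0138) and rho 0.77 (adjusted permutation p = 0.0259), and r stayed at 0.78 without replicates 2 and 8. Atf3 and Nr4a1 had the highest r, 0.92, but missed the threshold (adjusted permutation p = 0.124), and in the diabetic Apoe null group their arrays fell into separate pairs. Egr2 and Egr3 reached r = 0.72, which fell to 0.43 without replicates 10 and 12 (adjusted permutation p = 0.124). Junb and Ier2 had r = 0.65 (adjusted permutation p = 0.151). Their r with Atf3 and Jun was negative, from −0.35 to −0.17, and far from the threshold (adjusted permutation p = 0.805 each). Without replicates 1 and 3, r with Jun was positive, 0.45 for Junb and 0.30 for Ier2. With Atf3 it was 0.02 for Junb without replicates 1 and 12, and −0.48 for Ier2 without replicates 3 and 9. Without replicates 9 and 10 the same 3 pairs passed both tests, with r of 0.80, 0.78 and 0.78 over 13 arrays (adjusted permutation p = 0.0459 each). Atf3 and Egr3 then passed as well, at r = 0.91 (adjusted permutation p = 0.0459).

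**Figure D3:**
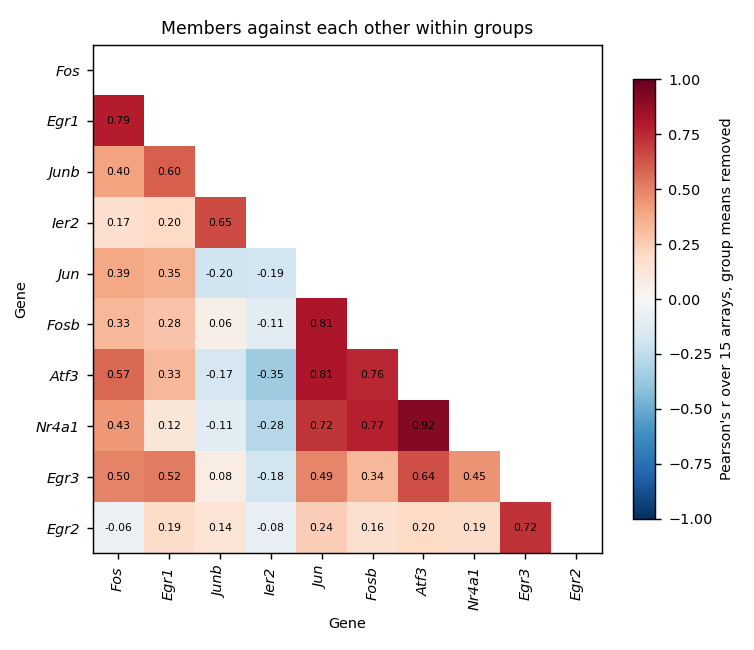
Pearson's r between members over the 15 arrays after removal of the group means (printed in each cell, colour scale from −1 to 1). Fos and Egr1 form a pair, Jun, Fosb, Atf3 and Nr4a1 form a block with r of 0.72 to 0.92, and Egr2 and Egr3 form a further pair.

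The first comparison asked what diabetes did in Apoe null aorta (4 arrays against 4). Of the members, 8 of 10 had a higher mean in diabetic aortas, with a median difference of 0.39 against −0.00 over all 18193 genes. Egr3 differed by 0.95 ± 0.41 (± SE, 1.94-fold), Fos by 0.68 ± 0.29 (1.60-fold) and Egr1 by 0.43 ± 0.20 (1.34-fold). The flat Egr3 probe set, nearly as bright (mean 5.09 against 5.12), differed by −0.05 ± 0.09. Differences of Atf3 (0.64 ± 0.63), Fosb (0.53 ± 0.35), Jun (0.36 ± 0.25), Egr2 (0.33 ± 0.29) and Junb (0.27 ± 0.18) were under 2 SE, and Nr4a1 (−0.42 ± 0.47) and Ier2 (−0.07 ± 0.16) pointed the other way.

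None of these passed the test. By limma, with p-values adjusted over all 45037 probe sets by the Benjamini-Hochberg method, 0 of the 13 member probe sets had an adjusted p under 0.05, as did 0% of all probe sets. Adjusted p was 0.439 for Egr3, 0.440 for Fos and 0.468 for Egr1. At an unadjusted p under 0.05 these 3 of 13 probe sets were higher, against 5.78% of all probe sets and 7.27% of genes. By the submitters' own threshold, a log odds B above 0, no member passed, and 0.169% of probe sets did. In none of the 13 were the groups apart, against 3.49% of probe sets that were higher without overlap. With 1 array left out in turn, the difference ranged from 0.16 to 1.15 for Atf3 (without replicates 3 and 1), from 0.09 to 0.53 for Jun (3 and 1) and from 0.10 to 0.39 for Junb (1 and 3). It ranged from 0.23 to 0.76 for Fosb (5 and 2), from 0.15 to 0.42 for Egr2 (5 and 8) and from −0.76 to −0.08 for Nr4a1 (4 and 1). Egr3 kept 0.70 to 1.21 by its varying probe set, and the mean of both Egr3 probe sets differed by 0.45. The mean level of the heat shock chaperones, the other stress genes followed here, was 9.88 to 10.18 in diabetic and 9.35 to 9.66 in non-diabetic Apoe null aortas. Fat markers were lower with diabetes, at a mean of 8.89 to 10.22 against 9.80 to 10.53 for brown fat and of 8.81 to 9.58 against 9.50 to 9.78 for white fat. At an unadjusted p under 0.05, 5 of 7 brown and 4 of 7 white fat genes were lower, against 5.94% of all genes. The relation of these lists to the members was not tested.

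The second comparison asked what RAGE loss did without diabetes (3 arrays against 4). All 10 members had a lower mean in Apoe/RAGE null aortas, with a median of −0.32 against 0.00 over all genes. Differences ran from −0.66 ± 0.51 for Nr4a1 and −0.45 ± 0.32 for Egr2 to −0.01 ± 0.38 for Fosb. Ier2 (−0.35 ± 0.18), Junb (−0.32 ± 0.20), Egr3 (−0.38 ± 0.44), Atf3 (−0.31 ± 0.68), Fos (−0.30 ± 0.31), Egr1 (−0.28 ± 0.21) and Jun (−0.07 ± 0.28) lay between. The signs of Fosb and Jun turned in some of the alternatives given in the closing section.

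Again 0 of 13 member probe sets, and 0% of all, passed limma's adjusted p of 0.05, and the adjusted p was 1.00 for each member. At an unadjusted p under 0.05, 1 of 13 was lower, the second Egr2 probe set (−0.68 ± 0.23), against 1.34% of all probe sets. Groups did not overlap, with Apoe/RAGE null lower, in 3 of 13 (Junb, Nr4a1 and the second Egr2 probe set), against 2.66% of all. For Junb the nearest values almost met, at 5.5811 in Apoe/RAGE null and 5.5818 in Apoe null aorta (limma's unadjusted p = 0.123). Neutrophil markers were also lower in this group (7 of 9 genes), at a mean of 3.49 to 3.60 against 3.67 to 4.10 in non-diabetic Apoe null aortas. So were skeletal muscle (12 of 12), macrophage (10 of 10) and erythrocyte markers (4 of 4). Smooth muscle markers were split, 5 higher and 5 lower, and brown fat markers had 5 higher and 2 lower. The part of these cells and tissues was not tested.

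The third comparison asked what diabetes did where RAGE was absent as well (4 arrays against 3), and it shares the non-diabetic Apoe/RAGE null group with the second. Members went both ways, 6 higher and 4 lower, with a median of 0.17 against −0.02 over all genes. Egr2 (0.61 ± 0.32), Junb (0.51 ± 0.20), Egr3 (0.36 ± 0.44), Egr1 (0.23 ± 0.21), Ier2 (0.18 ± 0.18) and Fos (0.17 ± 0.31) had higher means with diabetes. Nr4a1 (−0.70 ± 0.51), Atf3 (−0.69 ± 0.68), Fosb (−0.32 ± 0.38) and Jun (−0.15 ± 0.28) had lower ones. The second Egr2 probe set differed most relative to its error, by 0.98 ± 0.23 (1.97-fold, adjusted p = 0.609).

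No member passed limma's adjusted p of 0.05 (0 of 13, and 0% of all probe sets). At an unadjusted p under 0.05, 2 of 13 were higher (Junb and the second Egr2 probe set) against 3.6% of all, and 1 was lower (the flat Egr3 probe set, −0.21 ± 0.09) against 3.65%. The same 2 were higher without overlap, against 2.41% of all. Without replicate 12, 1 member probe set passed, the second Egr2 probe set at 1.19 ± 0.20 (adjusted p = 0.0462). Without replicates 9 and 10 the median of the members was −0.11, Egr3 turned to −0.25 and Fos to −0.04, and Egr2 was 0.26 and Junb 0.46. Then 1 of 13 was higher at an unadjusted p under 0.05, the second Egr2 probe set, against 2.03% of all. Replicate 10 raised the Egr2 mean, which differed by 0.29 without it. Skeletal muscle markers moved with this comparison, all 12 being higher in the diabetic Apoe/RAGE null group, with mean levels of 7.40 to 9.45 against 4.00 to 4.88. Macrophage markers were higher for 10 of 10 (7.16 to 8.16 against 6.89 to 7.16), 7 of them at an unadjusted p under 0.05. Neutrophil markers were higher for 8 of 9 (3.94 to 4.99 against 3.49 to 3.60), 5 at that p, and 1 was lower at it. Of all genes, 3.74% were higher and 3.97% lower at that p. Without replicates 9 and 10, 2 of 10 macrophage and 4 of 9 neutrophil markers were higher at that p, against 2.43% of all genes. The part of these cells in the members' differences was not tested.

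The fourth comparison set Apoe/RAGE null against Apoe null aortas, both diabetic (4 arrays each), and shares each of its groups with one of the comparisons of diabetes. All 10 members had a lower mean in Apoe/RAGE null aortas, with a median of −0.70 against −0.00 over all genes. Atf3 differed by −1.64 ± 0.63 (3.11-fold), Egr3 by −0.97 ± 0.41 (1.96-fold), Nr4a1 by −0.94 ± 0.47 (1.92-fold), Fosb by −0.86 ± 0.35 (1.82-fold) and Fos by −0.81 ± 0.29 (1.76-fold). Jun (−0.59 ± 0.25) and Egr1 (−0.48 ± 0.20) followed, while Egr2 (−0.16 ± 0.29), Ier2 (−0.11 ± 0.16) and Junb (−0.08 ± 0.18) differed by less than their errors. The flat Egr3 probe set differed by −0.07 ± 0.09, and the mean of both Egr3 probe sets by −0.52.

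This comparison had 110 of 45037 probe sets past limma's adjusted p of 0.05, or 0.244%, and 0 of the 13 member probe sets among them. That count rested on single arrays. It was 0 without replicate 1, 3 or 4, 2 without replicate 10, 1 without replicate 11, 24 without replicate 9, 31 without replicate 12 and 931 without replicate 2, and 0 in a fit of the compared groups alone. Adjusted p was 0.207 for Fos, 0.237 for Atf3, 0.264 for Fosb, 0.276 for Egr1, 0.277 for Egr3, 0.297 for Jun and 0.375 for Nr4a1. At an unadjusted p under 0.05, 6 of 13 were lower (Fos, Fosb, Jun, Atf3, Egr1 and Egr3) against 9.21% of all probe sets. Among genes the background was 11.3%. No member had B above 0, against 0.713% of probe sets. In none were the groups apart, against 4.7% of probe sets that were lower without overlap.

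Member values depended on single arrays too. Without replicate 2, Fos passed at −1.09 ± 0.26 (adjusted p = 0.0481). Leaving out replicate 3 took the Atf3 difference to −1.16, that of Jun to −0.31 and that of Nr4a1 to −0.60. Leaving out replicate 1 took Atf3 to −2.16, and leaving out replicate 12 took Egr1 to −0.30. Without replicates 9 and 10, 6 of 13 were lower at an unadjusted p under 0.05, against 8.54% of all, and none passed the adjusted threshold. Then Atf3 differed by −2.11, Egr3 by −1.59, Nr4a1 by −1.23, Fos by −1.02, Fosb by −0.84, Jun by −0.62, Egr1 by −0.58 and Egr2 by −0.51. Skeletal muscle markers were higher in the Apoe/RAGE null group here too (12 of 12, 7.40 to 9.45 against 4.99 to 8.17), smooth muscle markers were lower for 9 of 10 (10.46 to 10.97 against 10.75 to 11.25). Fat markers were higher, for brown fat at 9.39 to 10.50 against 8.89 to 10.22 and for white fat at 9.16 to 9.97 against 8.81 to 9.58. At an unadjusted p under 0.05, 5 of 7 brown and 4 of 7 white fat genes were higher, against 6.62% of all genes. The part of these tissues was not tested.

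**Figure D4:**
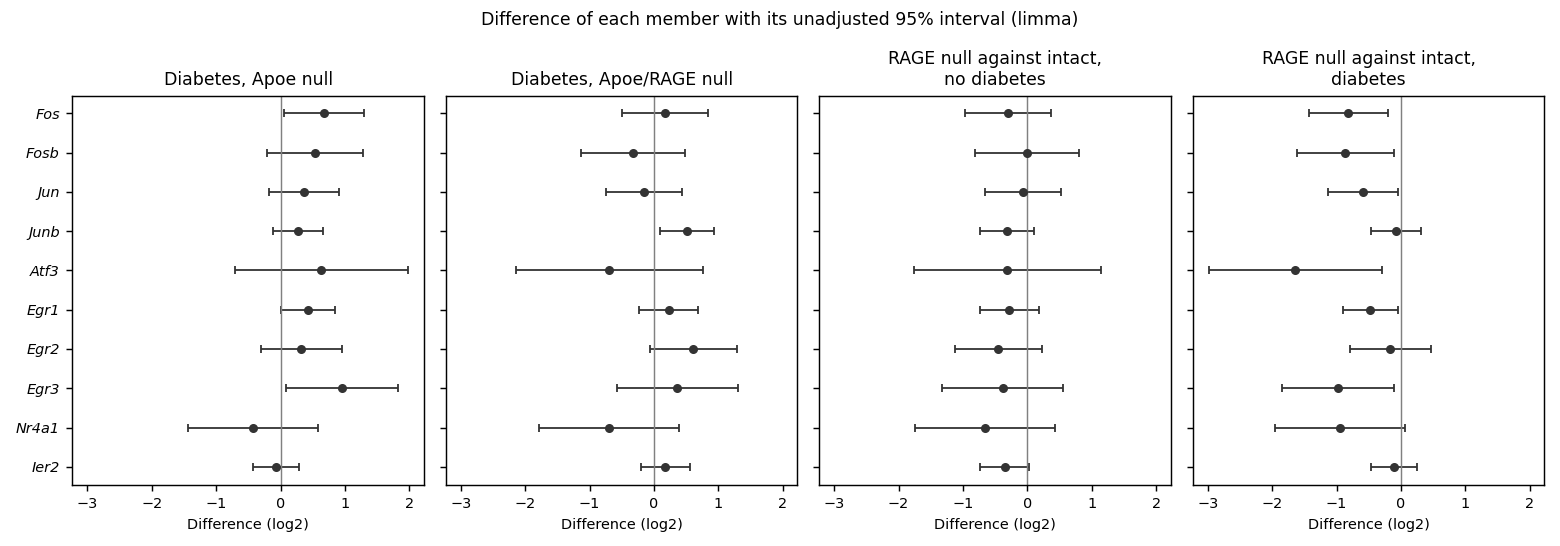
Difference of each member (rows; log2, horizontal axis) with its unadjusted 95% limma interval in the 4 comparisons of the design (panels from left to right: diabetes in Apoe null, diabetes in Apoe/RAGE null, genotype without diabetes, genotype with diabetes). All 10 points lie below 0 in both genotype comparisons, and intervals exclude 0 for Fos, Egr1 and Egr3 in the panel of diabetes in Apoe null, Junb in that of diabetes in Apoe/RAGE null and Fos, Fosb, Jun, Atf3, Egr1 and Egr3 in the last, without adjustment for the number of probe sets.

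Whether the diabetes difference itself depended on genotype was tested as an interaction. None of the 13 member probe sets passed limma's adjusted p of 0.05, as 0% of all did. At an unadjusted p under 0.05, 1 of 13 was higher, the second Egr2 probe set (0.70 ± 0.31, adjusted p = 0.676), against 2.29% of all. The diabetes difference was lower in Apoe/RAGE null than in Apoe null aortas for 7 of 10 members, with a median of −0.40. It was lowest for Atf3 (−1.33 ± 0.93), Fosb (−0.85 ± 0.52) and Egr3 (−0.59 ± 0.60), and positive for Egr2 (0.29 ± 0.43), Ier2 (0.25 ± 0.24) and Junb (0.24 ± 0.27). A different response in the 2 genotypes was therefore not shown for any member, and the interval for Atf3 ran from −3.30 to 0.65. Without replicates 9 and 10 the median was −0.56 and the difference was −1.80 ± 0.95 for Atf3, −1.20 ± 0.55 for Egr3, −0.83 ± 0.52 for Fosb and −0.06 ± 0.36 for Egr2. None of the 13 then passed the adjusted threshold (adjusted p = 0.575 for Egr3), and 1, Egr3, was lower at an unadjusted p under 0.05 against 4.6% of all.

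Other early transcription factors, such as the CREM repressor and the nuclear receptor NR4A3, were followed as a list of 18 genes. In diabetic against non-diabetic Apoe null aortas 14 were higher and 4 lower (median 0.31), and 4 were higher at an unadjusted p under 0.05, with 0 of 18 past limma's adjusted threshold. At that unadjusted p 7.27% of all genes were higher in this comparison and 5.94% lower. Nr4a3 differed by 0.94 ± 0.37 and Crem by 0.48 ± 0.14, both without overlap of the groups. Their dimmer probe sets did not all follow, 1 of 3 for Nr4a3 (−0.11 ± 0.10) and 2 of 4 for Crem (−0.04 ± 0.08 and −0.14 ± 0.11) having the other sign. Those 2 Crem probe sets had mean levels of only 2.34 and 2.54. The remaining dimmer one, at 5.04, differed by 0.61 ± 0.13. In diabetic Apoe/RAGE null against Apoe null aortas 3 were higher and 15 lower (median −0.21), with 4 lower at an unadjusted p under 0.05 and 0 past the adjusted threshold. Between diabetic genotypes 6.62% of all genes were higher and 11.3% lower at that p. Fosl2, another FOS subunit, differed by −0.74 ± 0.31, Crem by −0.45 ± 0.14 and Csrnp1 by −0.43 ± 0.16. The same 2 dim Crem probe sets again had the other sign (0.03 ± 0.08 and 0.09 ± 0.11). The Crem probe set at 5.04 differed by more, −0.84 ± 0.13, and passed the adjusted threshold. It is not among the list counts, which use only the brightest probe set of each gene. With replicates 9 and 10 left out, the median was −0.43 and 7 of 18 were lower at that level, against 10.4% of all genes.

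Early effectors, genes of the same kinetics whose products are not transcription factors, numbered 22. In Apoe null aortas 18 were higher and 4 lower with diabetes (median 0.20), 3 of 22 at an unadjusted p under 0.05 (Ifrd1, Arc and Ccn2), against the 7.27% of genes, and 0 past the adjusted threshold. In diabetic Apoe/RAGE null against Apoe null aortas 7 were higher and 15 lower (median −0.12). At an unadjusted p under 0.05, 7 of 22 were lower, against 11.3% of all genes, and 0 passed the adjusted threshold. By brightest probe sets, Hbegf, which encodes an EGF receptor ligand shed from the cell surface, came closest. It read 7.82, 7.48, 8.34 and 8.81 in diabetic Apoe null aortas and 7.44, 6.05, 6.74 and 6.93 in diabetic Apoe/RAGE null aortas, a difference of −1.32 ± 0.29 (adjusted p = 0.0680) with no overlap. The dimmer Hbegf probe set, not used for the counts, differed by −1.28 ± 0.24, which is more relative to its error. This dimmer probe set passed the adjusted threshold. The matricellular growth factor gene Ccn2 differed by −0.80 ± 0.20 (adjusted p = 0.0998). The list median was −0.29 once replicates 9 and 10 were left out. Then 10 of 22 were lower at an unadjusted p under 0.05, against 10.4% of all genes.

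Feedback inhibitors, the phosphatases, mRNA decay factors and corepressors that end the early response, numbered 17. With diabetes in Apoe null aortas 15 were higher and 2 lower (median 0.14), of which 1, the RAS pathway inhibitor gene Spred1 (0.25 ± 0.07; 1 of its 8 probe sets had the other sign), had an unadjusted p under 0.05, a share below the 7.27% of all genes. In diabetic Apoe/RAGE null against Apoe null aortas 4 were higher and 13 lower (median −0.12). At that level 4 of 17 were lower, against 11.3% of all genes, and 0 passed the adjusted threshold. The MAP kinase phosphatase gene Dusp1 differed by −0.49 ± 0.14 (adjusted p = 0.125), and Nab2, a corepressor of EGR proteins, by −0.52 ± 0.18 (adjusted p = 0.182). The median without replicates 9 and 10 was −0.20, and 3 of 17 were lower at that level, against 10.4% of all genes.

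Of 19 upstream kinases and factors, 15 were measured by a probe set of their own. Diabetes in Apoe null aortas went with 12 higher and 3 lower (median 0.10), and 0 passed the adjusted threshold. At an unadjusted p under 0.05, 4 of 15 were higher and 1 lower, against 7.27% and 5.94% of all genes. The SRF partner gene Elk3 differed by 0.51 ± 0.18, Creb1 by 0.36 ± 0.13 and the kinase gene Rps6ka3 by 0.30 ± 0.09, each of the last 2 with 1 dim probe set of the other sign. Between diabetic genotypes 4 were higher and 11 lower (median −0.06), and 2 of 15 had an unadjusted p under 0.05, a share near the 11.3% of all genes that were lower. Srf itself differed by −0.60 ± 0.18 (adjusted p = 0.137). Leaving out replicates 9 and 10 gave a median of −0.09, with 4 of 15 lower at an unadjusted p under 0.05, against 10.4% of all genes.

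Known targets of AP-1 or EGR1 numbered 13. With diabetes in Apoe null aortas 10 were higher and 3 lower (median 0.37), and 0 passed the adjusted threshold. At an unadjusted p under 0.05, 6 of 13 were higher, against 7.27% of all genes. The 6 included Plaur, the urokinase receptor gene (0.52 ± 0.13), the stromelysin gene Mmp3 (0.98 ± 0.26) and the growth factor gene Pdgfa (0.48 ± 0.13). Between diabetic genotypes 2 were higher and 11 lower (median −0.24). At that level 4 of 13 were lower, against 11.3% of all genes, and 0 passed the adjusted threshold. Plaur read 5.94, 5.32, 5.88 and 5.42 in diabetic Apoe null and 5.15, 5.16, 4.98 and 4.90 in diabetic Apoe/RAGE null aortas, a difference of −0.59 ± 0.13 (adjusted p = 0.0659) with no overlap. Pdgfa also did not overlap (−0.52 ± 0.13, adjusted p = 0.100). In the fit that left out replicates 9 and 10 the median was −0.27. At an unadjusted p under 0.05, 4 of 13 were then lower and 1 higher, against 10.4% and 10.6% of all genes.

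In the other comparisons 0 genes of these 5 lists passed limma's adjusted threshold. With RAGE loss in non-diabetic aortas, 1 gene of the 5 lists was lower at an unadjusted p under 0.05, against 1.28% of all genes. It was the cytokine gene Il6 (−0.25 ± 0.10), whose mean level, 2.37, lay below the array medians of 4.35 to 4.42. Diabetes in Apoe/RAGE null aortas went with higher levels at that p for 4 of 22 effectors, such as Socs3 (0.82 ± 0.30) and Plk2 (0.63 ± 0.18; its dim second probe set had the other sign), and for 4 of 13 AP-1 or EGR1 targets, such as Icam1 (0.86 ± 0.29), against 3.74% of all genes higher and 3.97% lower. Nr4a3 was higher (0.96 ± 0.39) and Nfil3 lower (−0.85 ± 0.39), as was Dusp1 (−0.33 ± 0.15), and Elk3 was higher (0.60 ± 0.20). Once replicates 9 and 10 were left out, the effectors showed 2 higher and 3 lower and the targets 0 of 13 at that p, against 2.43% of all genes higher and 1.81% lower.

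Unlike in the lists above, some of the stress-induced heat shock chaperones passed the test on all 15 arrays by their brightest probe set. This contrast holds for 1 probe set per gene only. Between diabetic genotypes, dimmer probe sets of Crem (−0.84 ± 0.13) and Hbegf (−1.28 ± 0.24) differed by more of their errors than the Hspa1a probe set that passed (−1.68 ± 0.32). In the same fit these dimmer probe sets therefore passed as well. Whether they still passed under other choices of arrays was not examined. Of the chaperones, 4 of 12 were lower there at an adjusted p under 0.05, namely Hspa1a, Hspa1b, Dnaja1 and Chordc1, against 0.286% of genes. Hspa1b differed by −1.41 ± 0.24, Dnaja1 by −0.70 ± 0.12 and Chordc1 by −0.51 ± 0.08 (adjusted p = 0.0432 for each). These calls were lost in many alternatives. None of the 12 passed in a fit of the compared groups alone or without replicate 1, 3, 4, 10 or 12, while 6 passed without replicate 2, 2 without replicate 9, and 1 without replicate 11 or without replicates 9 and 10 together. With diabetes in Apoe null aortas 8 of 12 were higher at an unadjusted p under 0.05, against 7.27% of genes, and 0 passed the adjusted threshold. This list and the members were not tested against each other.

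**Figure D5:**
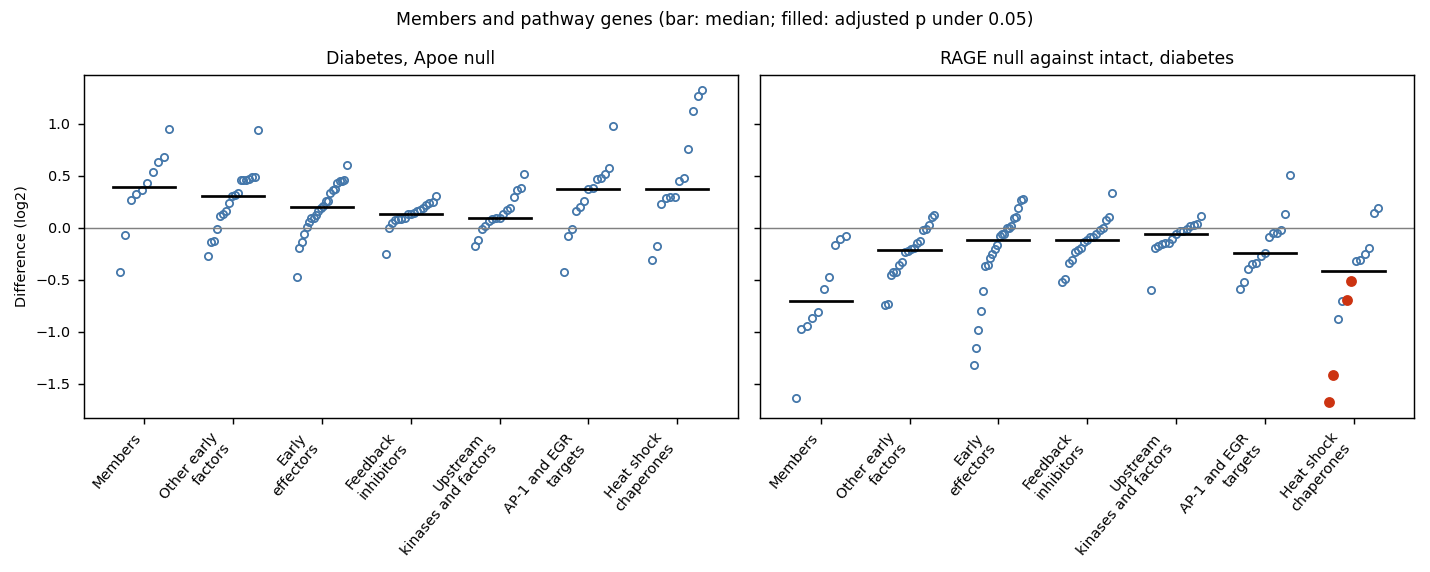
Differences (log2, vertical axis) of the members and the pathway genes (1 point per gene, bar at the median, filled where limma's adjusted p was under 0.05) with diabetes in Apoe null aorta and between genotypes in diabetic aorta. Medians lie above 0 in the left panel (0.39 for the members) and below 0 in the right one (−0.70 for the members), and filled points occur for 4 heat shock chaperone genes in the right panel.

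Genes whose levels over the 15 arrays were most like those of the members were found by correlation with the mean of the 10 scaled members. That mean was highest in replicates 3 (1.28) and 4 (1.16) and lowest in replicate 12 (−1.15). The 8 most alike were Rab17 (r = 0.92), Pprc1 (0.91), Thra (0.90), Rhoc (0.90), Klhl28 (0.89), Gstm2 (0.89), Ckap4 (0.89) and Creb3l1 (0.89), none of them an immediate early gene of the lists. After removal of the group means their r was 0.75 to 0.87. The 3 most opposed were Stxbp2 (−0.88), Phka2 (−0.87) and Ldha (−0.87). These are descriptions over 15 arrays that share group differences, chosen as the extremes of 18193 genes.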

How the data were processed

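Per the submitters' processing notes, the authors computed the deposited log2 levels by RMA, and whether all arrays were normalized in 1 run was not settled by the sources used here. Groups came from the labels. All samples had an RNA integrity score above 8, per the labels' protocols. Precision depends on the number of arrays. Of 45101 probe sets, 64 controls were left out. Of the rest, 34945 carried 1 gene, 932 several and 9160 none in the platform annotation of 2016, and 34741 matched RefSeq by Entrez ID. Differences were fitted with limma 3.58.1 (R 4.3.3), 1 mean per group over 15 arrays, eBayes and Benjamini-Hochberg adjustment over 45037 probe sets at 0.05. The fit was tested on simulated data. P-values measure only differences between these mice. Figures were drawn with matplotlib 3.10.9 (Python 3.11.15).

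All members were named. Of each list the 3 genes with the smallest p per comparison were eligible, as were the 8 genes most and the 3 least like the members. Decr2 was chosen after its values were seen. Members and lists were chosen with earlier results of these data known. Alternatives were B above 0, a fit of the compared groups alone, a filter on the dimmer probe sets, median centring, quantile normalization, array weights, eBayes with trend and robust, other choices of probe set per gene, the removal of probe sets whose probes may be shared, and the removal of single arrays, of replicates 9 and 10 and of the 2 least similar arrays. The counts of list genes and the pairs of members without replicates 9 and 10, and the counts of heat shock genes under other choices of arrays, were added after the data were seen.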

Additional observations from a re-analysis of the deposited data

Results flagged for a closer look

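In 39 combinations of a member probe set and a group of 4 arrays, 1 array was checked for lying far from the other 3 by Dixon's criterion, which chance meets in about 1 of 20. It was met 2 times in the 39, close to that chance rate. Fos in diabetic Apoe null replicate 2 read 8.04 against 9.08 to 9.16 in the other 3, a gap of 0.929 of the group's range. Atf3 in diabetic Apoe/RAGE null replicate 9 read 7.61 against 5.60 to 5.78, a gap of 0.911 of the range. Replicate 9 is an array whose Decr2 level lay below those of the non-diabetic Apoe/RAGE null arrays, which does not settle its genotype. The comparisons with and without it stand in the report.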

How the results depend on the processing

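No paired analysis was possible because no replicate number occurs in more than 1 group. The count of member probe sets past the adjusted threshold was 0 in each comparison and stayed 0 under every alternative run except the removal of replicate 12 or of replicate 2. It ranged from 0 to 1 for diabetes in Apoe/RAGE null aorta (1 without replicate 12, Egr2) and from 0 to 1 between diabetic genotypes (1 without replicate 2, Fos). The median of the members kept its sign under all alternatives run but 1: for diabetes in Apoe/RAGE null aorta it turned to −0.11 without replicates 9 and 10. With 1 array left out the medians ranged from 0.23 to 0.52 (diabetes, Apoe null), −0.39 to −0.19 (genotype, no diabetes), 0.05 to 0.26 (diabetes, Apoe/RAGE null), −0.90 to −0.53 (genotype, diabetes) and −0.64 to −0.21 (interaction). Other alternatives also went outside these ranges. The median was −0.50 between diabetic genotypes with the mean over all probe sets of a gene. For diabetes in Apoe/RAGE null aorta it was 0.013 without the 2 arrays least like the others.

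Single differences turned sign in 24 cases, none of them past the threshold, and the cause was not tested. Fosb without diabetes turned to 0.0035 under quantile normalization. Without replicates 9 and 10, Fos (−0.041) and Egr3 (−0.25) turned for diabetes in Apoe/RAGE null aorta and Egr2 (−0.064) in the interaction. Without the 2 arrays least like the others, replicates 10 and 11, Egr3 read −0.036 for that diabetes difference, and Egr2 −0.26 and Nr4a1 0.086 in the interaction. With 1 array left out, ranges that crossed 0 were −0.25 to 0.040 for Ier2 with diabetes in Apoe null aorta, −0.31 to 0.15 for Fosb and −0.20 to 0.069 for Jun between non-diabetic genotypes, and −0.028 to 0.33 for Fos with diabetes in Apoe/RAGE null aorta. Between diabetic genotypes they were −0.20 to 0.086 for Junb, −0.21 to 0.074 for Ier2 and −0.49 to 0.11 for Egr2, and in the interaction −0.66 to 0.061 for Nr4a1 and −0.040 to 0.56 for Egr2.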
